A study of Mus musculus with 15 samples.

Results

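The MHC class II genes examined were H2-Aa, H2-Ab1, H2-Eb1, H2-DMa, H2-DMb1, H2-Oa, H2-Ob, Cd74 and Ciita. These 9 genes were taken by symbol from 2 tables of FPKM (fragments per kilobase of exon scaled to library size, a level that is corrected for gene length) from RNA sequencing of mouse CD8 T cells. Of the 9 genes, 7 were analysed among the 11262 genes of the first table, 8 among the 11211 genes of the second table, and 6 in both. H2-DMb1 and Ciita were analysed in the second table only, and H2-Eb1 in the first table only. In the mm10 genome Ciita lies on chromosome 16 (10480014 to 10531064), Cd74 on chromosome 18 (60803849 to 60812652) and the others on chromosome 17.

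All cells came from LCMV-P14 TCR transgenic mice, whose T cells carry a receptor for the gp33–41 peptide of the LCMV glycoprotein. The mice were female and 9 to 13 weeks old for the first table. For each of its 3 replicates the lymph nodes of 3 mice were pooled and shared out between naïve cells, cells activated for 24 h in IL-12 at 2 ng/ml, IL-2 at 20 ng/ml and peptide at 100 ng/ml (TCR activated), and cells activated in the same way with 10 µM IC87114 (PI3Kdi), an inhibitor of the PI3K catalytic subunit p110δ. Activated cells without the inhibitor received the vehicle DMSO. Naïve cells were sorted as live TCRβ+ CD8+ CD62L high CD44 low cells. Both kinds of activated cells were sorted only after the 24 h culture, as live CD8+ cells with no second T cell marker. The second table holds CTL, cytotoxic T lymphocytes grown by activation for 48 h and a further 4 days in 20 ng/ml IL-2. On day 6 the IL-2 was washed out, and the CTL were kept for 24 h with 20 ng/ml IL-2 or without IL-2, in 3 replicates each. A sort and the age of the mice are not given for the CTL in the sources used here.

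MHC class II molecules display peptides from the endocytic pathway to CD4 T cells and are made mainly by B cells, dendritic cells and macrophages. H2-Aa, H2-Ab1 and H2-Eb1 encode chains of the classical molecules I-A and I-E, and Cd74 encodes the invariant chain that guides them to endosomes and shields their groove. H2-DMa and H2-DMb1 form H2-DM, which removes the CLIP fragment of the invariant chain and edits the bound peptides, and H2-Oa and H2-Ob form H2-DO, an inhibitor of H2-DM. Ciita encodes the coactivator that acts on a complex of RFX, CREB and NF-Y bound to the X and Y boxes of these promoters. Mouse T cells, unlike human T cells, are known for little or no class II protein at their surface even after activation.

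The 7 genes of chromosome 17 lie close together, with H2-Oa from 34092379 to 34095234 and H2-Eb1 from 34305867 to 34316674 at the ends of the stretch. H2-DMa, H2-DMb1, H2-Ob, H2-Ab1 and H2-Aa lie between them in this order, and only H2-Aa (34282744 to 34287823) is read from the minus strand. Promoter sequences from RefSeq (GRCm38.p6) were examined for 6 of the 9 genes. No window of H2-Ab1, Cd74 or Ciita was included in the member counts below. The sequences are shown because the X and Y boxes are what the members are known to share. A further reason is that the classical and the H2-O genes moved differently in these cells. Each line runs 5′ to 3′ on the strand of the gene, and the capitals mark the letters GNAAC, which form the core of the X box, and the Y box ATTGG.
H2-Aa, minus strand of chr17:34287847-34287924: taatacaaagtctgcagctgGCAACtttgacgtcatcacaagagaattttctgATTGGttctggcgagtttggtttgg
H2-Eb1, plus strand of chr17:34305756-34305832: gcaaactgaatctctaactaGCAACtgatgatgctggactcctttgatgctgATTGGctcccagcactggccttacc
H2-DMb1, plus strand of chr17:34153077-34153154: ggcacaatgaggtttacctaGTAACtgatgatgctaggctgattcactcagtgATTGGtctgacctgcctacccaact
H2-Oa, plus strand of chr17:34092283-34092360: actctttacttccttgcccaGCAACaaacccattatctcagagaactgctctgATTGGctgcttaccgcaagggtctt
H2-Ob, plus strand of chr17:34238798-34238872: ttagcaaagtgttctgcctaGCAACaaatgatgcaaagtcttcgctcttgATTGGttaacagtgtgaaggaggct
In these 5 genes the X core started 76 to 94 bases before the gene start, and the Y box started 30 to 33 bases after the X core. The promoters of a classical chain and of an H2-O chain therefore held the same pair of letter groups at nearly the same spacing. Over all 32851 promoter windows of 300 bases, 5.38% held GNAAC followed within 40 bases by ATTGG on the same strand, a rule written after the member promoters had been read. The stricter X box letters CCTAGNNAC, which overlap the core, were found on either strand in 2 of the 7 member windows (H2-DMb1 and H2-Ob) and in 3.91% of all windows. ATTGG was found on either strand in 6 of the 7 member windows and in 37.4% of all windows, and both motifs together in 2 of 7 and in 1.34%. H2-DMa has 2 windows, and neither held the pair. Such matches describe letters and are not measured binding sites.

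CD8 T cell genes were high in every library, and Cd8a ranged over 529 to 556 FPKM before activation, 167 to 189 FPKM after it and 202 to 228 FPKM with PI3Kdi. Markers of cells that make class II were also looked at, because the groups were sorted by different gates. Of 17 B cell markers 8 had values in the first table, with none at 0 in any library, and their sum was 29.9 to 37.8 FPKM in naïve, 10.9 to 15.0 FPKM in TCR activated and 17.0 to 22.1 FPKM in PI3Kdi cells. Most of this sum was Cd79b and Pou2af1. Without these 2 genes, a choice made after their values were seen, the sum of Bank1, Cd22, Cd79a, Fcer2a, Ms4a1 and Spib was 1.86 to 7.30 FPKM in naïve, 2.18 to 4.30 FPKM in TCR activated and 0.56 to 0.98 FPKM in PI3Kdi cells. Of 9 dendritic cell markers 3 had values, and their sum was 0.14 to 0.28 FPKM in naïve, 58.0 to 93.4 FPKM in TCR activated and 14.6 to 23.6 FPKM in PI3Kdi cells. Nearly all of it was Batf3, a factor that activated T cells also make and whose cells were blank in the 3 naïve libraries and were read as 0. Of 10 macrophage and monocyte markers only Cd68 had values (1.85 to 4.94 FPKM over the 9 libraries), and none of 7 stromal and endothelial markers had any. In bulk RNA, fewer cells of a type and less RNA per cell cannot be told apart.

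Naïve cells held 2 sets of class II genes that differed in level and in how well the replicates agreed. The peptide editing genes H2-DMa, H2-Oa and H2-Ob stood at 21.7 to 56.3 FPKM. The classical chains stood at 0.46 to 8.60 FPKM and varied far more between the 3 pools. H2-DMa was measured at 40.6, 56.3 and 46.2 FPKM in naïve replicates 1 to 3 (47.7 ± 7.96, SD, n = 3), above 85.4% of all genes of that group. H2-Oa was at 32.2, 40.8 and 37.8 FPKM (36.9 ± 4.34, SD, n = 3). H2-Ob was at 21.7, 27.4 and 22.5 FPKM (23.9 ± 3.08, SD, n = 3). The 2 chains of H2-DO were thus within a factor of 1.68 of each other in every naïve library. H2-Aa was at 2.23, 8.60 and 3.74 FPKM (4.86 ± 3.33, SD, n = 3). H2-Ab1 was at 1.36, 5.13 and 2.26 FPKM (2.92 ± 1.97, SD, n = 3). H2-Eb1 was at 0.46, 4.07 and 1.22 FPKM (1.92 ± 1.90, SD, n = 3). In these 3 chains replicate 2 was the highest and replicate 1 the lowest. Cd74 had the same order, with 4.95, 19.5 and 10.4 FPKM (11.6 ± 7.36, SD, n = 3).

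The coefficient of variation of the 3 classical chains and Cd74 in naïve cells was 63.3% to 99.3%, larger than that of at least 99.7% of the 9703 genes with a mean of 1 FPKM or more, whose median was 9.74%. For H2-DMa, H2-Oa and H2-Ob it was 11.8% to 16.7%, which was also above that median. All 7 members were highest in naïve replicate 2, as were the 6 B cell markers named above and Cd79b but not Pou2af1, while 33.5% of all genes were highest in that library. The sum of H2-Aa, H2-Ab1 and H2-Eb1 was 4.05, 17.8 and 7.22 FPKM in naïve replicates 1 to 3, and that of the 6 B cell markers was 1.86, 7.30 and 4.22 FPKM in the same libraries. The sum of H2-DMa, H2-Oa and H2-Ob was 94.6, 125 and 106 FPKM. From its lowest to its highest naïve library the sum differed 4.40-fold for the classical chains, 3.92-fold for the 6 B cell markers and 1.32-fold for H2-DMa, H2-Oa and H2-Ob. With Cd79b (1.11-fold) and Pou2af1 (1.25-fold) included, the sum of all 8 B cell markers differed 1.26-fold, so that the wide spread was that of the 6 markers chosen after their values were seen. The part of B cell RNA in the class II levels was not tested.

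**Figure D1:**
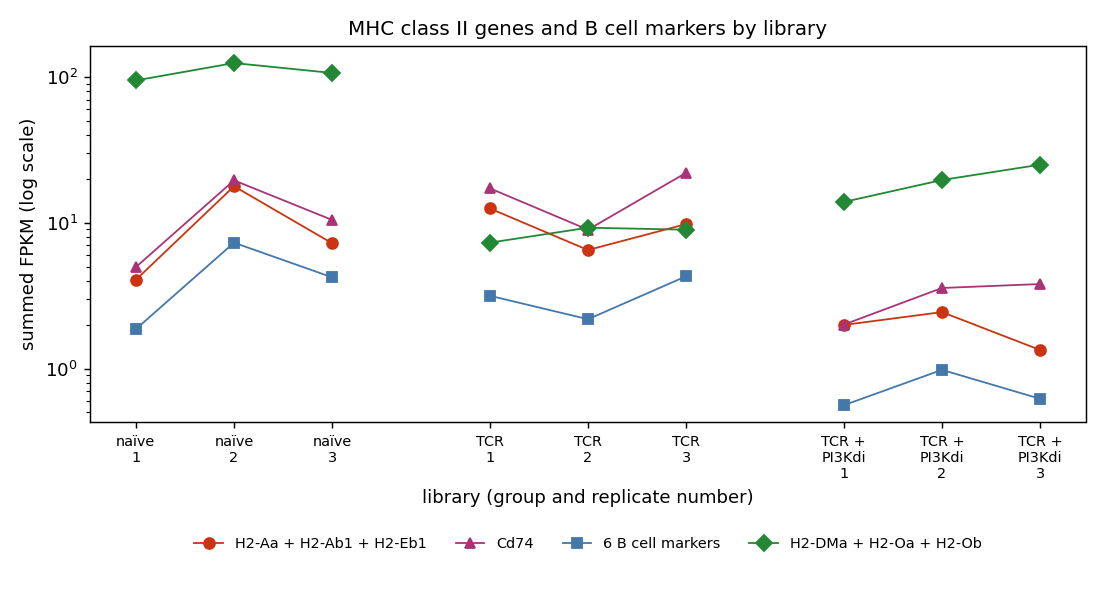
Summed FPKM (log scale) in each of the 9 libraries of the first table, for the classical chains H2-Aa, H2-Ab1 and H2-Eb1, for Cd74, for the 6 B cell markers other than Cd79b and Pou2af1 and for H2-DMa, H2-Oa and H2-Ob; lines join the replicates of a group. Replicate 2 is the highest naïve library for every sum, all but the H2-DM and H2-O sum are lowest with PI3Kdi, and the H2-DM and H2-O sum is highest in naïve cells (94.6 to 125 FPKM). The 6 B cell markers were chosen after their values were seen. The sum of all 8 with values, not drawn, was higher with PI3Kdi (17.0 to 22.1 FPKM) than in TCR activated cells (10.9 to 15.0 FPKM).

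TCR activation for 24 h compared with naïve cells asks how the class II genes respond when naïve CD8 T cells meet antigen. The peptide editing genes fell steeply, H2-Ob the most, while the classical chains and Cd74 passed the test in neither direction. A change was called where limma on log2(FPKM + 0.1) gave a fold above 2 or below 0.5 and a Benjamini-Hochberg adjusted p below 0.05, on a scale that understates the change of genes with low FPKM. By this rule 0 of the 7 members rose, 3 fell and 4 were not called, against 48.7% of all genes called in either direction. The median log2 fold change of the members was -0.52, and that of all genes was 0.0054.

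H2-Ob, the beta chain of H2-DO, was at 0.32, 0.36 and 0.63 FPKM in TCR activated replicates 1 to 3 (0.437 ± 0.169, SD, n = 3), so that each was far below the lowest naïve library. Its log2 fold change was -5.52 (SE 0.26, adjusted p = 4.15e-09), and -4.11 with a pseudocount of 1. H2-Oa, the alpha chain of H2-DO, was at 1.14, 2.22 and 2.20 FPKM (1.85 ± 0.618, SD, n = 3), also with no overlap with naïve cells. Its log2 fold change was -4.30 (SE 0.32, adjusted p = 1.80e-07). H2-DMa, the alpha chain of H2-DM, was at 5.84, 6.67 and 6.13 FPKM (6.21 ± 0.421, SD, n = 3). It was lower in 3 of 3 pairs of replicates, with a log2 fold change of -2.91 (SE 0.17, adjusted p = 3.34e-08). The fall was unequal within the set. Levels of H2-DMa after activation were 0.118 to 0.144 of those in the naïve library of the same number, and levels of H2-Ob were 0.0131 to 0.0280 of them.

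H2-Ab1, the I-A beta chain, was at 8.52, 3.28 and 3.42 FPKM in the TCR activated replicates (5.07 ± 2.99, SD, n = 3). H2-Aa, its alpha partner, was at 2.69, 1.86 and 4.73 FPKM (3.09 ± 1.48, SD, n = 3). H2-Eb1, the I-E beta chain, was at 1.34, 1.36 and 1.65 FPKM (1.45 ± 0.173, SD, n = 3). These ranges all overlapped those of naïve cells, and in H2-Ab1 replicate 1 stood well above the other two. Cd74 was at 17.3, 8.96 and 22.1 FPKM (16.1 ± 6.62, SD, n = 3), which overlapped naïve cells as well. The log2 fold changes were -0.52 for H2-Aa (95% confidence interval -1.47 to 0.43), 0.84 for H2-Ab1 (-0.24 to 1.92), 0.09 for H2-Eb1 (-1.16 to 1.33) and 0.58 for Cd74 (-0.43 to 1.59). The intervals allow changes of more than 2-fold in each of the 4 genes. Naïve replicate 2 was the highest naïve library for all 4 genes, so leaving it out alone, a step added after the data were seen, had to raise each fold. Without it, H2-Ab1 (log2 fold change 1.33, adjusted p = 0.0225) and Cd74 (1.05, adjusted p = 0.0436) were called higher, while H2-Aa (-0.0063) and H2-Eb1 (0.84) were still not called. Leaving out 1 replicate number from every group gave log2 fold changes from -0.026 to 1.57 for H2-Ab1 and from -0.022 to 1.43 for Cd74.

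**Figure D2:**
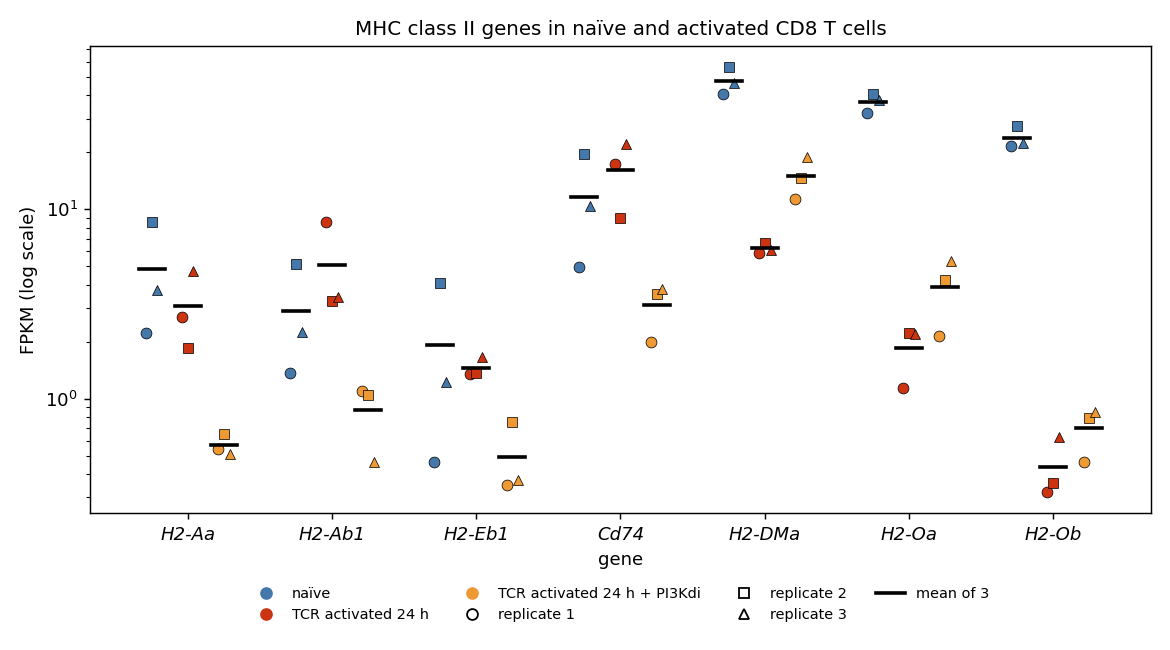
FPKM (log scale) of the 7 members of the first table in each library of naïve, TCR activated and PI3Kdi cells; symbols mark the replicate number and bars the mean of 3. H2-DMa, H2-Oa and H2-Ob are highest in naïve cells with no overlap, while H2-Aa, H2-Ab1, H2-Eb1 and Cd74 overlap between naïve and TCR activated cells and are lowest on average with PI3Kdi.

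PI3Kdi compared with TCR activation alone asks which of these levels differ when p110δ is inhibited during activation. The lymph node cells were cultured before the sort, so the inhibitor was present for the other cells of the culture as well. H2-Aa, H2-Ab1 and Cd74 fell to 0.195 to 0.223 of their level without the inhibitor and H2-DMa rose 2.33-fold, while H2-Eb1, H2-Oa and H2-Ob were not called. Of the 7 members 1 rose, 3 fell and 3 were not called, while 5.14% of all genes were called. The median log2 fold change was -1.45 for the members and -0.0076 for all genes. TCR activated cells serve in this comparison and in that with naïve cells, so the 2 comparisons share libraries.

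H2-Aa was at 0.54, 0.65 and 0.51 FPKM with PI3Kdi (0.567 ± 0.0737, SD, n = 3), a log2 fold change of -2.17 (SE 0.43, adjusted p = 0.00620). H2-Ab1 was at 1.10, 1.04 and 0.46 FPKM (0.867 ± 0.353, SD, n = 3), a log2 fold change of -2.35 (SE 0.49, adjusted p = 0.00787). Cd74 was at 2.00, 3.57 and 3.80 FPKM (3.12 ± 0.980, SD, n = 3), a log2 fold change of -2.29 (SE 0.46, adjusted p = 0.00644). In all 3 genes the libraries with PI3Kdi lay below every library of TCR activated cells. H2-Eb1 was at 0.35, 0.75 and 0.37 FPKM (0.490 ± 0.225, SD, n = 3), which did not overlap TCR activated cells either, but its log2 fold change of -1.45 (SE 0.56, adjusted p = 0.102) did not pass the test.

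Some B cell markers were also lower with PI3Kdi, and others were not. The sum of the 8 B cell markers with values was 10.9 to 15.0 FPKM in TCR activated and 17.0 to 22.1 FPKM in PI3Kdi cells, so that it was higher with the inhibitor. Pou2af1 was called higher (1.41) and Cd79b was not called (0.12). The sum of the other 6 markers named above was 3.16, 2.18 and 4.30 FPKM in TCR activated and 0.56, 0.98 and 0.62 FPKM in PI3Kdi libraries. Cd22, Fcer2a and Ms4a1 among them were called lower, with log2 fold changes from -1.71 to -2.34. These calls rest on very low values. With PI3Kdi, Cd22 was at 0.02 to 0.05 FPKM, Fcer2a at 0.07 to 0.09 FPKM and Ms4a1 at 0.04 to 0.11 FPKM, near the pseudocount of 0.1. In TCR activated cells they reached 0.70, 0.71 and 0.95 FPKM at most. Over all 8 markers 1 was called higher, 3 lower and 4 were not called. Of the dendritic cell markers Batf3 and Zbtb46 were called lower and Fscn1 was not called. The part of these cells in the fall of H2-Aa, H2-Ab1 and Cd74 was not tested. Without replicate 3 of both groups, these 3 genes were no longer called, with log2 fold changes of -1.76 for H2-Aa (adjusted p = 0.0726), -2.21 for H2-Ab1 (adjusted p = 0.0517) and -2.18 for Cd74 (adjusted p = 0.0534), and H2-DMa was the member still called.

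H2-DMa was at 11.3, 14.6 and 18.8 FPKM with PI3Kdi (14.9 ± 3.79, SD, n = 3), above every library of TCR activated cells. Its log2 fold change was 1.22 (SE 0.17, adjusted p = 0.000879). H2-Oa was at 2.15, 4.22 and 5.34 FPKM (3.90 ± 1.62, SD, n = 3), and its lowest library lay just below the highest of TCR activated cells. It was 1.89 to 2.43 times as high as in the same-numbered TCR activated library, with a log2 fold change of 1.00 (SE 0.32, adjusted p = 0.0512) that was not called. With the replicate number as a block its adjusted p was 0.00643, but its fold change stayed just under 2. H2-Ob was at 0.46, 0.79 and 0.85 FPKM (0.700 ± 0.210, SD, n = 3), and its log2 fold change was 0.58 (SE 0.26, adjusted p = 0.145). It was higher than in TCR activated cells in 3 of 3 pairs, and the groups overlapped.

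Cells activated with PI3Kdi compared with naïve cells show how far each gene stood from its starting level. All 7 members were lower, and 45.0% of all genes were called. This comparison shares its libraries with both others. The log2 fold change was -4.93 for H2-Ob (SE 0.26, adjusted p = 1.34e-08), -3.30 for H2-Oa (SE 0.32, adjusted p = 2.05e-06) and -1.69 for H2-DMa (SE 0.17, adjusted p = 3.89e-06). H2-DMa, H2-Oa and H2-Ob with the inhibitor were therefore still below naïve cells in every library. H2-Aa (-2.68, adjusted p = 0.000142), H2-Ab1 (-1.52, adjusted p = 0.0142) and Cd74 (-1.71, adjusted p = 0.00513) were also below every naïve library. H2-Eb1 had a log2 fold change of -1.37 (adjusted p = 0.0434) and its groups overlapped. Without naïve replicate 2 neither H2-Ab1 (-1.02, adjusted p = 0.0672) nor H2-Eb1 (-0.61, adjusted p = 0.178) was called.

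**Figure D3:**
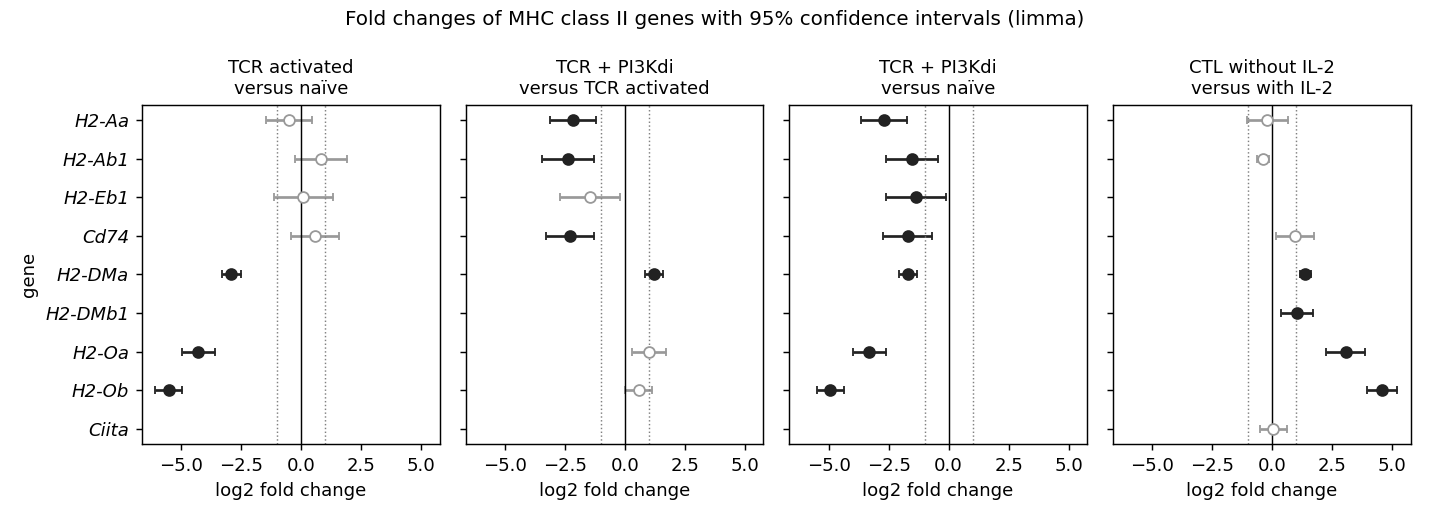
Log2 fold change of each member in the 4 comparisons, with 95% confidence intervals from limma (n = 3 per group); filled symbols were called, open symbols were not, dotted lines mark a 2-fold change, and a gene with no symbol was not analysed in that table. H2-DMa, H2-Oa and H2-Ob lie left of 0 on activation and right of it without IL-2, and H2-Aa, H2-Ab1 and Cd74 lie left of 0 in both comparisons of PI3Kdi cells.

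IL-2 withdrawal from CTL for 24 h asks which class II genes depend on continued IL-2. The peptide editing genes were again the ones called: H2-Ob, H2-Oa, H2-DMa and H2-DMb1 rose, while H2-Aa, H2-Ab1, Cd74 and Ciita were not called. Cd74 (log2 fold change 0.95, adjusted p = 0.0336) and H2-Ab1 (-0.38, adjusted p = 0.0164) passed the p limit but not the fold limit. Of the 8 members 4 were called higher and 0 lower, and 28.2% of all genes were called. The median log2 fold change was 0.99 for the members and -0.0009 for all genes. Tables were normalised separately, so levels in CTL and in the first table are given side by side without a test.

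H2-Ob was at 0.21, 0.14 and 0.06 FPKM in CTL with IL-2 (0.137 ± 0.0751, SD, n = 3) and at 4.77, 4.65 and 6.95 FPKM without IL-2 (5.46 ± 1.29, SD, n = 3). The groups were far apart, with a log2 fold change of 4.58 (SE 0.28, adjusted p = 9.07e-07). With IL-2 the levels were near the pseudocount, and the log2 fold change was 2.49 with a pseudocount of 1 and 5.34 with one of 0.01. At a pseudocount of 1 it was below that of H2-Oa (2.93), so the order of these 2 genes depends on the pseudocount. H2-Oa was at 12.4, 14.8 and 4.54 FPKM with IL-2 (10.6 ± 5.38, SD, n = 3) and at 79.7, 74.9 and 83.7 FPKM without it (79.4 ± 4.42, SD, n = 3). Its log2 fold change was 3.06 (SE 0.35, adjusted p = 4.27e-05), and 2.54 without replicate 3 of the CTL with IL-2, the library of that group in which all members but H2-Ab1 were lowest. Without IL-2, H2-Oa stood above 92.1% of all genes and at more than its level in any naïve library, whereas H2-Ob stayed below its level in every naïve library.

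H2-DMa was at 25.1, 25.7 and 21.4 FPKM with IL-2 (24.1 ± 2.31, SD, n = 3) and at 59.7, 58.9 and 69.6 FPKM without it (62.7 ± 5.94, SD, n = 3), a log2 fold change of 1.38 (SE 0.10, adjusted p = 2.44e-06). H2-DMb1, the beta chain that pairs with it, was at 2.57, 1.38 and 1.09 FPKM with IL-2 (1.68 ± 0.784, SD, n = 3) and at 3.11, 4.45 and 2.62 FPKM without it (3.39 ± 0.947, SD, n = 3). The groups of H2-DMb1 came close without overlapping, with a log2 fold change of 1.03 (SE 0.30, adjusted p = 0.0120). It was not called without replicate 2 (0.73, adjusted p = 0.128), without replicate 3 (0.94, adjusted p = 0.0229) or without replicate 3 of the CTL with IL-2 alone (0.78, adjusted p = 0.0403). H2-DMb2 is a near-identical neighbour of H2-DMb1, with which it can share reads, and was at 5.50, 5.44 and 3.76 FPKM with IL-2 and at 7.37, 7.26 and 8.17 FPKM without it. Values of H2-DMb1 are uncertain for this reason.

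**Figure D4:**
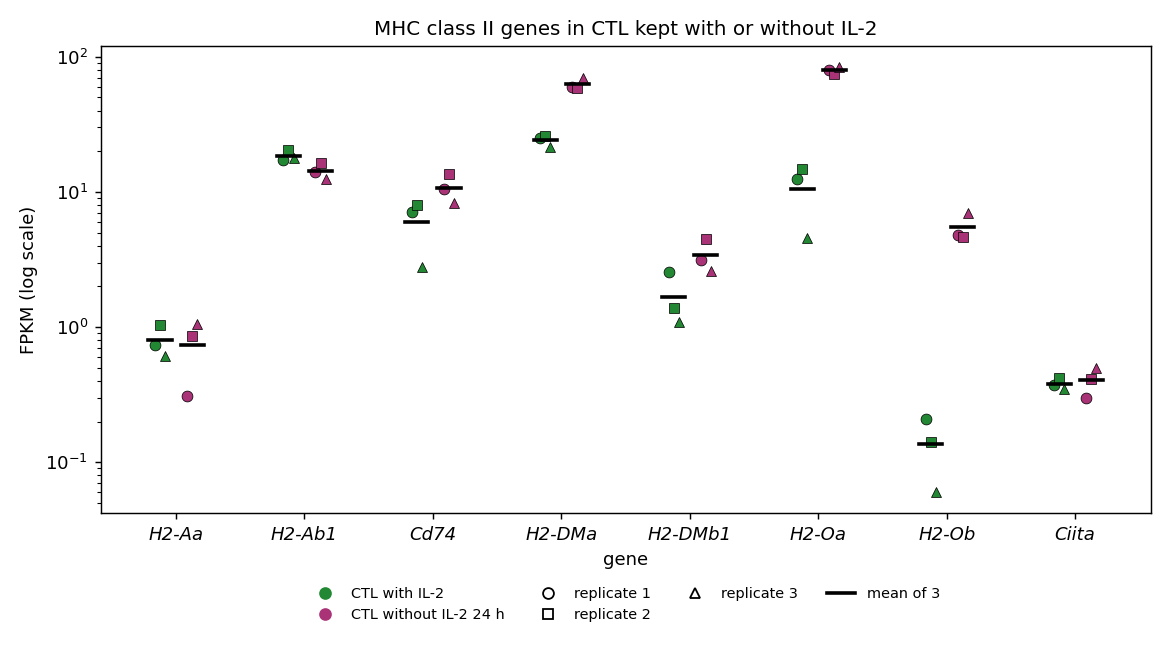
FPKM (log scale) of the 8 members of the second table in each library of CTL with IL-2 and without IL-2; symbols mark the replicate number and bars the mean of 3. H2-DMa, H2-DMb1, H2-Oa and H2-Ob are higher without IL-2 with no overlap, H2-Ab1 is lower without overlap but by less than 2-fold, and H2-Aa and Ciita overlap.

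H2-Ab1 was at 17.1, 20.4 and 18.0 FPKM in CTL with IL-2 (18.5 ± 1.67, SD, n = 3) and at 14.0, 16.3 and 12.4 FPKM without it (14.2 ± 1.98, SD, n = 3). Every library without IL-2 lay below every library with it. The log2 fold change of -0.38 (SE 0.12, adjusted p = 0.0164) was smaller than 2-fold and so was not called. H2-Aa was at 0.74, 1.04 and 0.61 FPKM with IL-2 and at 0.31, 0.86 and 1.05 FPKM without it, with a log2 fold change of -0.20 (95% confidence interval -1.04 to 0.65). Cd74 was at 7.11, 7.95 and 2.78 FPKM with IL-2 (5.95 ± 2.77, SD, n = 3) and at 10.4, 13.5 and 8.28 FPKM without it (10.7 ± 2.61, SD, n = 3). The groups did not overlap, and the log2 fold change of 0.95 (SE 0.35, adjusted p = 0.0336) was again under the limit. Ciita was at 0.37, 0.42 and 0.35 FPKM with IL-2 and at 0.30, 0.41 and 0.50 FPKM without it, above 4.63% and 3.47% of all genes, with a log2 fold change of 0.05 (95% confidence interval -0.50 to 0.61). The part of Ciita in the rise of H2-Oa, H2-Ob and H2-DMa was not tested. Exons of Ciita overlap those of Dexi on the opposite strand, which was at 7.74 to 9.31 FPKM with IL-2 and at 9.63 to 13.9 FPKM without it, so the Ciita values are uncertain if reads were counted without strand. In the CTL libraries only Bank1, Cd79b and Pou2af1 of the 17 B cell markers had values. Cd79b (2.74 to 6.30 FPKM with IL-2, 10.8 to 20.6 FPKM without it) and Pou2af1 were called higher and Bank1 lower. Of 9 dendritic cell markers 2 had values there, and Itgax was at 0.21 to 0.39 FPKM with IL-2 and at 3.67 to 5.17 FPKM without it (called higher), while Batf3 was not called. Of 10 macrophage and monocyte markers 2 had values, and Fcgr3 was at 1.33 to 2.61 FPKM with IL-2 and at 14.8 to 15.0 FPKM without it (called higher), while Cd68 was not called. Of 3 CD4 T cell markers 2 had values, and Cd4 was at 0.05 to 0.39 FPKM with IL-2 and at 0.92 to 1.92 FPKM without it (called higher). The part of other cells in the CTL results was not tested. The treatment labels of IL-2 replicates 2 and 3 name other interleukins, and these libraries were grouped by title.

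The chains of one molecule were compared within each library, where FPKM are per length. In naïve cells the ratio of H2-Ab1 to H2-Aa was 0.610, 0.597 and 0.604 in replicates 1 to 3, although the level of either gene differed by 3.77-fold or more between the lowest and highest of these libraries. In TCR activated cells the ratio was 3.17, 1.76 and 0.723, and with PI3Kdi it was 2.04, 1.60 and 0.902. It was thus higher than in naïve cells in all 6 activated libraries, and followed the same order of replicates with and without PI3Kdi. In CTL H2-Ab1 was 19.6 to 29.4 times as high as H2-Aa with IL-2 and 11.8 to 45.0 times without it, so that the 2 chains of I-A were at very unequal mRNA levels in every CTL library. The size of these ratios is uncertain, because H2-Aa was at only 0.61 to 1.04 FPKM with IL-2 and 0.31 to 1.05 FPKM without it. Cd79a and Ms4a1 were not analysed in the CTL table. The ratio of H2-Oa to H2-Ob was 1.49 to 1.68 in naïve cells, 3.49 to 6.17 in TCR activated cells and 4.67 to 6.28 with PI3Kdi. It was 59.2 to 106 in CTL with IL-2 and 12.05 to 16.7 without IL-2. With IL-2 the size of this ratio is uncertain, because H2-Ob was at only 0.06 to 0.21 FPKM. H2-Oa was therefore above H2-Ob in all 15 libraries, and their levels were nearest to each other in naïve cells.

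**Figure D5:**
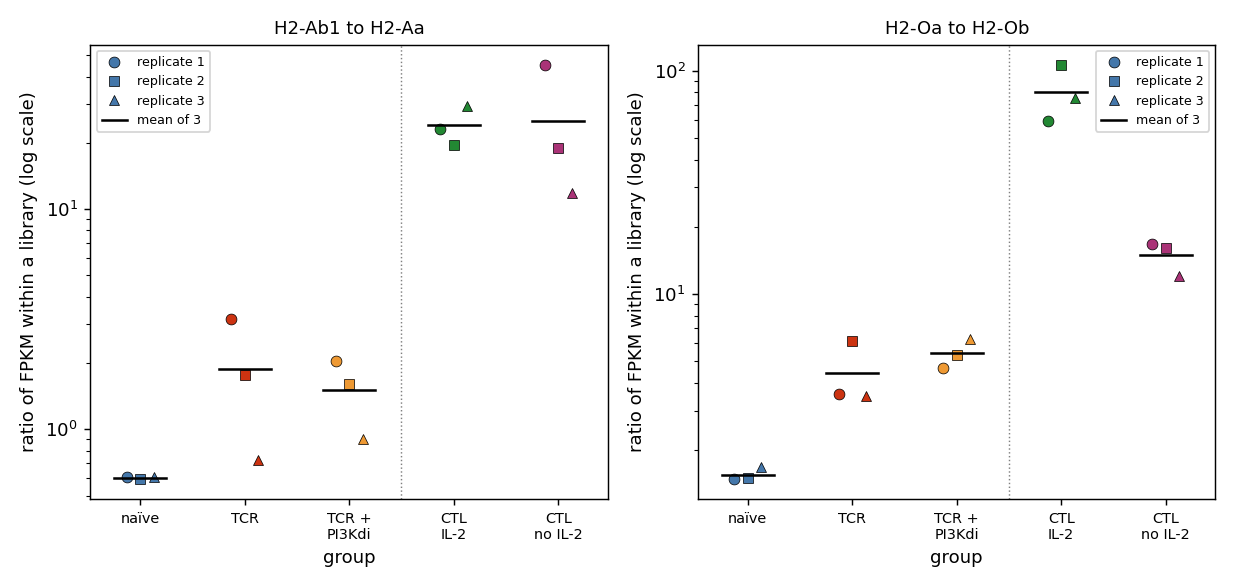
Ratio of FPKM within each library (log scale) for H2-Ab1 to H2-Aa and for H2-Oa to H2-Ob, by group; symbols mark the replicate number, bars the mean of 3, and the dotted line separates the tables. The H2-Ab1 to H2-Aa ratio is 0.597 to 0.610 in naïve cells and at least 11.8 in CTL, and the H2-Oa to H2-Ob ratio is lowest in naïve cells and highest in CTL with IL-2. The latter divides by H2-Ob levels of only 0.06 to 0.21 FPKM.

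Other genes of the class II pathway were described from fixed lists. Over all genes, 48.7% were called on TCR activation, 5.14% with PI3Kdi against TCR activation and 28.2% on IL-2 withdrawal. The counts of these short lists are to be read beside those shares. Of 7 genes for the RFX, NF-Y and CREB proteins that bind the X and Y boxes, 0 rose, 3 fell and 4 were not called on TCR activation, with a median log2 fold change of -0.16. The 3 were Creb1 (-1.11), Rfx5 (-1.22) and Rfxank (-1.93). None of the 7 was called with PI3Kdi or on IL-2 withdrawal. Of 10 genes for peptide loading and turnover 8 were analysed in the first table, of which 2 rose, 3 fell and 3 were not called on activation. Ctss, the cathepsin that trims the invariant chain, fell (-3.11), as did Ctsd (-1.70) and March8 (-1.24), while Ifi30, the thiol reductase of antigen processing, rose (2.93). Cd83, which counters the turnover of class II at the surface, rose from 0.86 to 1.25 FPKM before activation to 23.8 to 25.4 FPKM after it (log2 fold change 4.40). It was the gene of this list called with PI3Kdi, with a log2 fold change of -2.09 and 4.10 to 9.51 FPKM. On IL-2 withdrawal 7 genes of this list were analysed, and Ctss (1.27) and Ctsl (3.14) rose.

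Of 8 genes that act upstream of Ciita, 1 rose, 5 fell and 2 were not called on TCR activation, where 48.7% of all genes were called. Their median log2 fold change was -1.44. Those that fell were Ifngr1, Ifngr2, Jak1, Irf1 and Usf1, which belong to the interferon-γ route or bind Ciita promoters. Prdm1, a repressor of Ciita, rose from 0.12 to 0.30 FPKM in naïve cells to 1.26 to 4.61 FPKM (log2 fold change 3.42, adjusted p = 2.42e-05). None of the 8 was called with PI3Kdi, where 5.14% of all genes were called. On IL-2 withdrawal Ifngr1 (1.03) and Jak1 (1.25) rose and Socs1 (-1.97), a feedback inhibitor of JAK kinases, fell, while 5 were not called.

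Profiles like those of the members were sought among genes with a mean of 1 FPKM or more, by the root mean square difference of centred log2(FPKM + 0.1). Over the 9 libraries of the first table, Klf6 (0.50), Plaur (0.58), Gm14718 (0.61), Sh2d1a (0.64) and Runx2 (0.64) were nearest to the mean profile of H2-Aa, H2-Ab1, H2-Eb1 and Cd74, against a median of 1.18 over all genes ranked. Klf6 was at 26.5 to 39.6 FPKM in naïve, 47.1 to 49.7 FPKM in TCR activated and 12.9 to 13.7 FPKM in PI3Kdi cells, so its replicates agreed far better than those of the classical chains. For H2-Oa and H2-Ob, a profile added after the data were seen, the nearest genes were Gm14085, 2610019F03Rik, Orai2, Ltb and Arl5c (0.22 to 0.27, median over all genes 2.18). Over the 6 CTL libraries, Hist1h2bc, Atat1, Nid2, 3010026O09Rik and Rnaset2b (0.14 to 0.16) were nearest to H2-Aa, H2-Ab1 and Cd74, where the median over all genes was 0.44. Klhl24, 2410066E13Rik, Slamf6, Pik3ip1 and Ica1l (0.09 to 0.20, median 1.97) were nearest to H2-Oa and H2-Ob there.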

How the data were processed

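RNA was sequenced from 15 libraries in 5 groups of 3. The authors aligned reads to mm10 with STAR 2.5.2b, counted them per RefSeq gene with Subread 1.5.1, filtered low counts, scaled counts by TMM in edgeR and deposited FPKM on the summed exon length, rounded to 2 decimals. For the CTL table these steps are taken from the notes with the samples. Blank cells of the first table were read as 0. Read totals per library, and whether counting used strand, are not given in the sources used here, so the depth behind each value is unknown.

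Here log2(FPKM + 0.1) was fitted with limma 3.58.1 in R 4.3.3, with a trended variance prior, 1 fit per table, and p-values were adjusted by Benjamini-Hochberg over all genes of a table. The fits were tested on simulated data. Figures used matplotlib 3.10.9. Genes were named by membership of the class II group or of lists written for this work, plus the 5 genes of nearest profile per table; the members and lists were chosen with earlier results of these data known. Some genes of these lists are not reported here.

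Same-numbered libraries of the first table were taken to share a pool, since each pool was divided between the groups. Deviations from group means over 10072 genes correlated at 0.20 to 0.51 between same-numbered TCR activated and PI3Kdi libraries (mean 0.33, and -0.16 between other numbers). They correlated at -0.18 to 0.23 between naïve and TCR activated libraries (mean -0.032, and 0.017 between other numbers). Between naïve and PI3Kdi libraries the values were -0.017 to 0.030 (mean -0.00051, and 0.00041 between other numbers). Naïve libraries were thus on average no more like the activated libraries of the same number than like the others. In CTL, where no shared source is stated, the values were 0.12 to 0.26 over 10263 genes. Alternatives were other pseudocounts, fold limits and filters, median scaling, the replicate block, no variance trend, only the groups compared, and leaving out replicates; leaving out 1 naïve or 1 CTL library alone was added after the data were seen.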

Additional observations from a re-analysis of the deposited data

How the results depend on the processing

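Of 360 alternatives for single members, 325 kept the direction and the call, 9 gained a call, 18 lost one and 8 changed sign. Part of this was fixed in advance. The looser fold limits reuse the main fit, so under them no member could change sign or lose a call. The replicate block, no variance trend and only the groups compared leave the log2 fold change as it was, so they could not change its sign. The replicate block, which follows the pairing by pool, changed no call of a member and left 3, 4, 7 and 4 members called in the 4 comparisons. For TCR activation, leaving out a replicate gave 3 to 5 members called, and leaving out only naïve replicate 2 gave 5. With PI3Kdi against TCR activation it gave 1 to 5, with the 1 being H2-DMa without replicate 3. The changes of sign were all in values that were not called: on TCR activation H2-Aa ranged from -0.95 to 0.30, H2-Ab1 from -0.026 to 1.57, Cd74 from -0.022 to 1.43 and H2-Eb1 from -0.55 to 0.88 when a replicate was left out, and H2-Eb1 was -0.056 with a pseudocount of 1. On IL-2 withdrawal H2-Aa ranged from -0.64 to 0.22 and Ciita from -0.13 to 0.19. H2-Eb1, called lower with PI3Kdi against naïve cells, lost its call under median scaling, without a variance trend and with only those groups in the fit, and with H2-Ab1 under a pseudocount of 1 and without replicate 2 or 3. With PI3Kdi against TCR activation H2-Eb1 was called lower with only those groups in the fit, and H2-Oa higher without replicate 1. In CTL, Cd74 was called higher with a fold limit of 1.5 or none and H2-Ab1 lower with none, and H2-DMb1 lost its call with a pseudocount of 1. A pseudocount of 1 also made folds over 1.5 times smaller for H2-Aa (-1.33), H2-Ab1 (-1.62) and H2-Eb1 (-0.73) with PI3Kdi against TCR activation. It did so for H2-Aa (-1.75), H2-Eb1 (-0.78) and H2-Ob (-3.87) with PI3Kdi against naïve cells. Median scaling moved the median of all genes on TCR activation from 0.0054 to 0.12, and the members kept their calls relative to it. Over all genes, calls without a fold limit rose from 5490 to 9096 on TCR activation, from 579 to 1975 with PI3Kdi against TCR activation, from 5063 to 8906 with PI3Kdi against naïve cells and from 3166 to 8056 in CTL. A fold limit of 1.5 gave 1120 with PI3Kdi against TCR activation and 5657 in CTL, and for the former a pseudocount of 1 gave 311 and leaving out replicate 2 gave 323. The causes were not tested. Levels under 1 FPKM, such as those of Ciita and of H2-Aa with PI3Kdi, rest on few reads of unknown number.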

Other observations

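The class II genes can be set beside MHC class I genes in the same libraries. Nlrc5, the class I counterpart of Ciita, was at 62.8 to 69.9 FPKM in naïve cells, 17.2 to 23.0 FPKM in TCR activated cells and 26.2 to 33.8 FPKM with PI3Kdi. Of Nlrc5, B2m, H2-K1, H2-D1, Tap1, Tap2 and Tapbp, 6 fell on TCR activation and none was called with PI3Kdi or on IL-2 withdrawal. The shares of all genes called were 48.7%, 5.14% and 28.2% in these comparisons. Besides Ciita, H2-Oa and H2-DMa overlap exons of a gene on the opposite strand. BC051537, which overlaps H2-Oa, was at 1.20 FPKM at most in the first table and at 0.98 FPKM at most in CTL. Brd2, which overlaps H2-DMa, was at 98.4 to 121 FPKM in naïve, 75.9 to 93.7 FPKM in TCR activated and 67.2 to 73.7 FPKM in PI3Kdi cells. H2-DMb2, the neighbour of H2-DMb1, was at 0.59, 2.85 and 1.35 FPKM in naïve replicates 1 to 3, in the order of the classical chains.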
